A study of Homo sapiens with 3 samples.

Results

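Interferon response and antigen presentation genes were followed in Jurkat, an established human cell line from a T-cell acute lymphoblastic leukaemia, after inhibition of lactate dehydrogenase and after lactate was given back. The 48 genes were chosen by symbol: genes induced by interferon or acting in its pathway, and genes of peptide presentation on major histocompatibility complex (MHC) class I. Of these, 46 have a row among the 17329 gene rows of the deposited table, and 39 have a mean of at least 50 normalized counts over the 3 libraries, as do 12292 genes in all. IFI35, IFIT1, IFIT2, OAS1, MX1, TRIM22 and BST2 lie under that mean. IFIT3 and IRF9 were not analysed here.

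Cells were kept for 48 hours under 3 conditions, with 1 polyadenylated RNA library each. In the oxamate+lactate condition the medium held sodium oxamate at 50 mM with L-sodium lactate at 10 mM. In the oxamate condition it held sodium oxamate at 50 mM, and in the control condition it was standard medium with neither agent. Oxamate inhibits lactate dehydrogenase, and the series set out to relate lactate-dependent lactylation of histone H3 at lysine 18 to transcription. As each condition has a single library, no difference could be checked against replicates and none was tested, so "higher" and "lower" compare libraries and not conditions. All log2 ratios are of the normalized count plus 1. In bulk RNA of this kind, fewer cells of a type and less RNA per cell cannot be told apart.

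Interferons bound to their receptors activate the kinases JAK1 and TYK2 or JAK2, which phosphorylate STAT proteins. A complex that holds STAT2 and IRF9 then binds the interferon-stimulated response element (ISRE) of target genes, and STAT dimers formed after interferon-gamma bind a gamma-activated site (GAS). The targets include antiviral effectors and the machinery that cuts proteins into peptides, moves these into the endoplasmic reticulum and loads them on class I molecules. T cells keep a basal level of many of these genes without added interferon, and class I molecules are on nearly all nucleated cells.

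The libraries summed over genes to 8171633 in oxamate+lactate, 8821115 in oxamate and 8220199 in control. The number of reads behind them is not known, so no counting interval is given. Over the 12292 genes log2 ratios of oxamate against control had a median of 0.08 and an SD of 0.38. For oxamate+lactate the median was -0.09 (SD 0.19) against oxamate and -0.01 (SD 0.31) against control. The 18 ERCC spike-in RNAs with a mean of at least 100, which share only the handling after extraction, spread from -0.24 to 0.29, from -0.39 to 0.10 and from -0.39 to 0.39 in the same 3 comparisons. The 3 ERCC RNAs with a mean of 40 to 100 spread from -0.42 to 0.09, from -0.26 to 0.23 and from -0.38 to 0.32. All 12 T-lineage markers had a row, and 9 of them, CD3D, CD3E, CD3G, CD247, TRAC, CD5, CD7, LCK and ZAP70, had a mean of at least 50. CD4, CD28 and PTCRA lay under it. The sums over all 12 were 15641 in oxamate+lactate, 17357 in oxamate and 14969 in control. Those over the 3 B-cell markers with a row were 87, 69 and 92, and of these CD79A alone had a mean of at least 50.

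The interferon and class I genes kept close to their control levels in oxamate. Of the 39 members at or over a mean of 50, 2 were at least 1.5-fold higher in oxamate than in control, the immunoproteasome subunit PSMB10 and the transcription factor IRF1. None was 1.5-fold lower. Among all 12292 genes, 7.48% passed that threshold upward and 3.98% downward (4.63% and 5.71% with the libraries scaled to equal gene sums), so the share of 5.13% higher among the 39 is near that of genes at large. Their median log2 ratio was 0.14, with 25 genes above 0 and 14 below, beside 59.6% of all genes above 0. No member was 2-fold different in any of the 3 comparisons. Of all genes, 1.21% were 2-fold higher and 0.879% lower in oxamate than in control, 0% and 0.00814% in oxamate+lactate than in oxamate, and 0.545% and 0.342% in oxamate+lactate than in control. Log2 ratios within 0.25 of 0 were found for 28 of the 39, and for 53.9% of all genes.

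Single members that left the range of the ERCC ratios were few. Over the 32 members with a mean of at least 100, ISG15, IRF1, PARP9, DTX3L and TAPBP lay above every ERCC ratio for oxamate against control, which is 15.6% of them, beside 25% of all genes at that level. IFITM2 alone lay below, 3.12% of the 32, beside 14.9% of all genes.

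**Figure D1:**
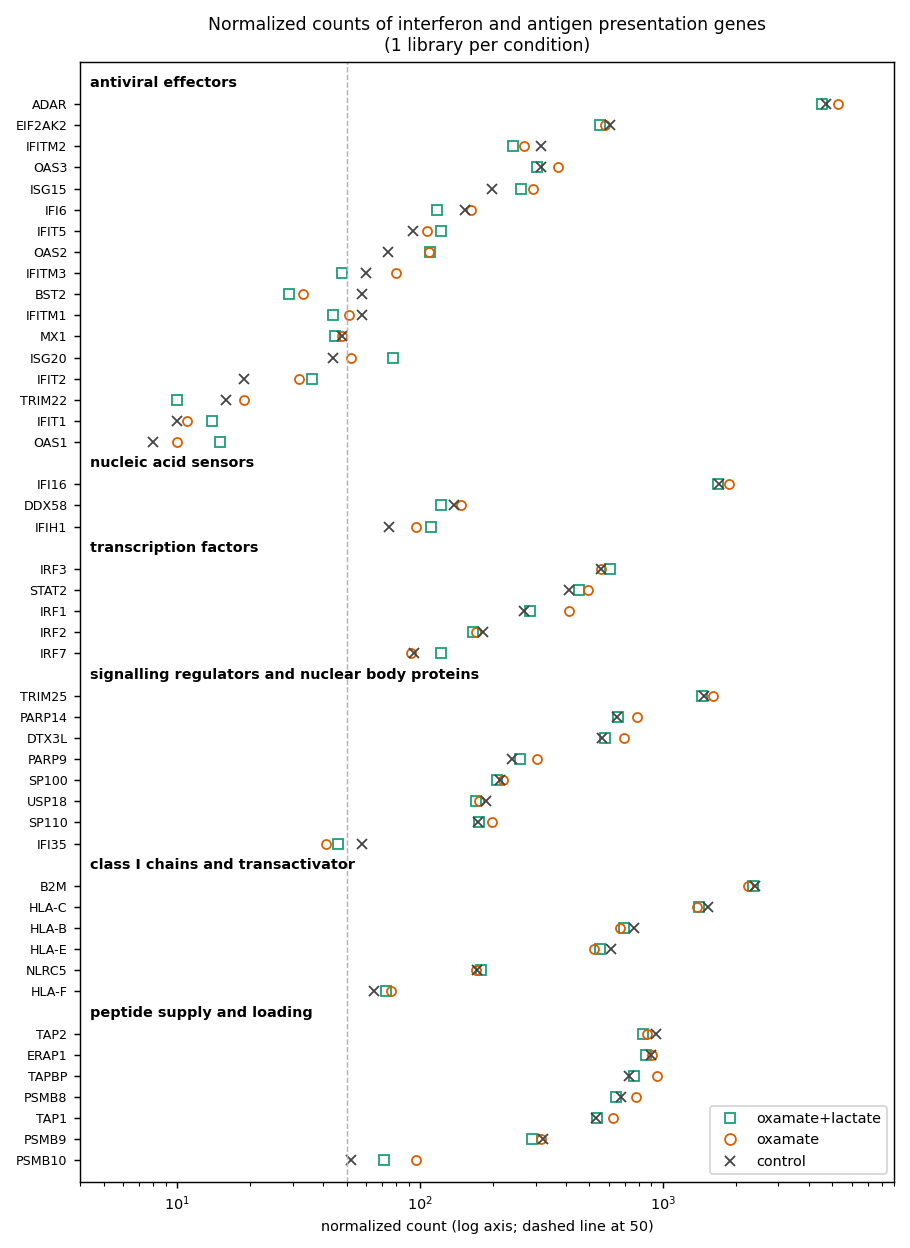
Normalized counts (log axis) of the 46 genes with a row, grouped by role, with 1 symbol per library for oxamate+lactate, oxamate and control and a dashed line at 50. The 3 symbols of most genes lie close together, while IRF1 and PSMB10 have their oxamate symbol furthest right.

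In the values as deposited, IFITM3 was the only one of the 39 at least 1.5-fold different between oxamate+lactate and oxamate, and it was lower. ISG20 was 1.5-fold higher as well with equal gene sums, equal ERCC sums, centring on the median of all genes and the trend on GC content and length removed. The 2.56% for IFITM3 stands beside 0.903% of all genes lower by that fold and 0.252% higher (0.342% and 0.635% with equal gene sums). The member median was -0.12, next to -0.09 for all genes, with 11 members above 0 and 28 below. Among the 32 members with a mean of at least 100, IFIT5, IRF3 and IRF7 lay above every ERCC ratio (9.38%, beside 11.7% of all genes at that level), and IFI6 and IRF1 lay below (6.25%, beside 3.58%). For oxamate+lactate against control, ISG20 was at least 1.5-fold higher and no member was 1.5-fold lower, where 2.99% of all genes were higher and 3.07% lower (4.12% and 2.16% with equal ERCC sums). The median there was -0.03. No member with a mean of at least 100 lay outside the ERCC ratios in that comparison, where 6.33% of all genes at that level lay above and 6.57% below. Each library enters 2 of the 3 comparisons, so these ratios are not independent.

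**Figure D2:**
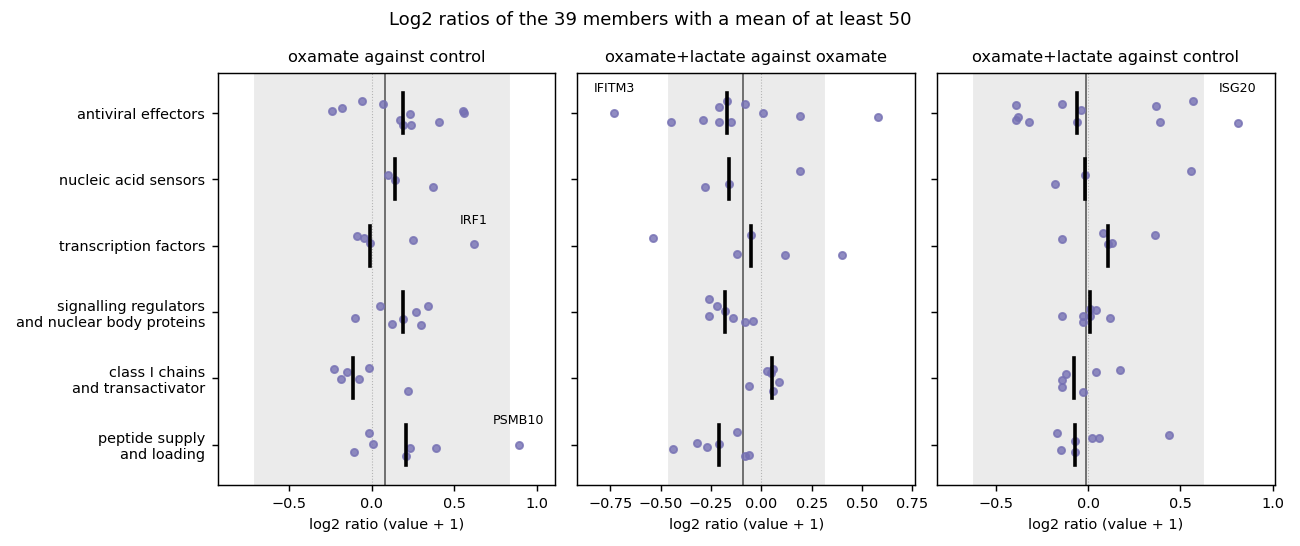
Log2 ratios of the 39 members at or over a mean of 50 in the 3 comparisons (x axis), by role (y axis), with a black bar for each role's median, a grey line for the median of all genes and a grey band for their central 95%. Of the genes named in the panels, PSMB10, IFITM3 and ISG20 lie outside the band of the panel that names them, and IRF1 lies inside that of oxamate against control and outside that of oxamate+lactate against oxamate, at -0.54, and class I chains have the lowest role median for oxamate against control, at -0.12.

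Transcription factors of the response had IRF1 as their member with the highest ratio. IRF1, itself an interferon-gamma target that drives class I and immunoproteasome genes, had 284 normalized counts in oxamate+lactate, 412 in oxamate and 268 in control. The oxamate library stood apart and the other two were close: the log2 ratio was 0.62 for oxamate against control, -0.54 for oxamate+lactate against oxamate and 0.08 for oxamate+lactate against control. The ratio of oxamate against control was just under 1.5-fold with equal gene sums (0.52), relative to the median of all genes (0.54) and without the trend on GC content and length (0.55). For oxamate+lactate against oxamate, only 1.37% of all genes had a lower ratio than IRF1. In the GENCODE annotation 22.0% of the exon bases of IRF1 are shared with C5orf56 on the opposite strand, and the reads carry no strand information. C5orf56 had 145 in oxamate+lactate, 187 in oxamate and 104 in control, and its part in the IRF1 values was not tested. STAT2, a subunit of the complex that binds the ISRE, had 453 in oxamate+lactate, 493 in oxamate and 413 in control (0.25 for oxamate against control). IRF3, the factor switched on by virus sensing, had 605, 557 and 559 in the same order. It shares 19.3% of its exon bases with BCL2L12. IRF2, an antagonist of IRF1 on shared sites, had 165 in oxamate+lactate, 171 in oxamate and 182 in control (-0.09). IRF7, the amplifier of type I interferon production, had 122 in oxamate+lactate, 92 in oxamate and 95 in control. Its ratio of 0.40 for oxamate+lactate against oxamate was above those of 98.8% of all genes, and the oxamate and control libraries differed by -0.05.

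The genes upstream of these factors, taken from a list of the rest of the pathway, showed no 1.5-fold difference. Of 13 receptors, kinases and regulators, all had a row and 11 a mean of at least 50, and their log2 ratios for oxamate against control ran from -0.27 to 0.55. Of all genes, 7.48% were 1.5-fold higher and 3.98% lower in that comparison. The type I receptor chains differed from each other: IFNAR2 had 545, 567 and 387 in oxamate+lactate, oxamate and control (0.55 for oxamate against control), and IFNAR1 had 681, 667 and 673 (-0.01). Of the kinases, JAK1 had 898, 952 and 931, TYK2 1573, 1762 and 1623, and JAK2 170, 161 and 177, all within 0.14 of 0 for oxamate against control. Type II receptor chains were as level, with 176, 169 and 164 for IFNGR1 and 318, 355 and 342 for IFNGR2. Of 9 interferon genes listed, none was analysed here.

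Of the sensors of foreign nucleic acid, IFI16 and DDX58 differed little between oxamate and control, and IFIH1 was higher in both treated libraries. IFI16, a DNA sensor of the nucleus and cytosol, had 1690 in oxamate+lactate, 1882 in oxamate and 1709 in control (0.14 for oxamate against control). DDX58, which encodes the RNA helicase RIG-I, had 122, 148 and 138 (0.10). IFIH1, the helicase MDA5, which senses long double-stranded RNA, had 111 in oxamate+lactate, 97 in oxamate and 75 in control. Its ratio was 0.37 for oxamate against control and 0.56 for oxamate+lactate against control, the highest of the 3 sensors in each. The second of these passed 1.5-fold with equal ERCC sums and with the trend on GC content and length removed, as did 4.12% and 2.39% of all genes. The mean of IFIH1 is under 100. Genes with a mean of 50 to 100 were 1.5-fold higher than in control in 12.8% of cases for oxamate and 8.44% for oxamate+lactate. Downstream of the sensors, IKBKE, a kinase that activates IRF3, was the only one of 7 listed sensing genes with a mean of at least 50 to be 1.5-fold different, at 218 in oxamate+lactate, 238 in oxamate and 156 in control (0.61). It is 14.3% of the 7, beside 7.48% of all genes 1.5-fold higher in oxamate than in control. MAVS, the mitochondrial adaptor, had 656, 858 and 774, and TMEM173, which encodes STING, had 153, 158 and 169.

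Antiviral effectors went in different directions. The 18 listed effectors include 17 with a row and 11 with a mean of at least 50, whose median for oxamate against control was 0.19, from -0.24 for IFITM2 to 0.56 for ISG15. ISG15, a ubiquitin-like protein joined to viral and host proteins, had 261 in oxamate+lactate, 293 in oxamate and 199 in control. Both treated libraries were above control, with log2 ratios of 0.39 for oxamate+lactate and 0.56 for oxamate. OAS2, a synthetase of the messenger that activates RNase L, had 110 in oxamate+lactate, 109 in oxamate and 74 in control (0.57 and 0.55 against control). At a mean of 50 to 100, where OAS2 lies, log2 ratios against control had an SD of 0.46 for oxamate+lactate and 0.52 for oxamate. OAS3, a relative of OAS2, had 303, 370 and 315 (0.23 for oxamate against control). OAS1 was listed at 15, 10 and 8, too low to compare.

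The IFITM proteins, which block viral fusion at membranes, did not share a direction for oxamate against control, and all 3 were lower in oxamate+lactate than in control and than in oxamate, also under every rescaling. IFITM2 had 242 in oxamate+lactate, 268 in oxamate and 317 in control, the highest value being that of control. IFITM1 had 44, 51 and 58 in the same order. IFITM3 had 48 in oxamate+lactate, 80 in oxamate and 60 in control, so that oxamate was above the other two (0.41 for oxamate against control and -0.73 for oxamate+lactate against oxamate). At a mean of 50 to 100, where IFITM1 and IFITM3 lie, 3.58% of 1789 genes were 1.5-fold lower in oxamate+lactate than in oxamate, a larger share than among all genes. These genes are close copies of each other, and IFITM1 and IFITM2 also share exon bases in the annotation, so reads may have been split between them.

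Among the IFIT genes, which bind foreign RNA ends, IFIT5 had 122 in oxamate+lactate, 107 in oxamate and 94 in control. IFIT2 was listed at 36, 32 and 19, and IFIT1 at 14, 11 and 10. In all 3 of these the treated libraries were above control, at values too low for IFIT1 and IFIT2 to be compared with the ERCC spread. ISG20, an exonuclease of single-stranded RNA, had 78 in oxamate+lactate, 52 in oxamate and 44 in control. Of the 39 members at or over a mean of 50, this one had the highest ratio of oxamate+lactate against control, 0.81, and of oxamate+lactate against oxamate, 0.58, which was just under 1.5-fold. Genes with a mean of 50 to 100 were 1.5-fold higher in oxamate+lactate than in control in 8.44% of cases.

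The double-stranded RNA enzymes ADAR and EIF2AK2 differed little between oxamate and control. ADAR, the adenosine deaminase that edits double-stranded RNA, had 4550 in oxamate+lactate, 5275 in oxamate and 4692 in control (0.17 for oxamate against control). EIF2AK2, the kinase PKR that stops translation, had 552, 582 and 608 (-0.06). IFI6, a mitochondrial and endoplasmic reticulum protein, had 118, 162 and 154, with oxamate+lactate the lowest (-0.45 against oxamate, with 2.57% of all genes lower still). MX1, a dynamin-like GTPase and a common reporter of interferon exposure, was listed at 45, 48 and 48. BST2, or tetherin, which holds budding virus on the cell, was listed at 29 in oxamate+lactate, 33 in oxamate and 58 in control, and TRIM22, a ubiquitin ligase, at 10, 19 and 16. BST2 had the lowest log2 ratio of the 46 genes for oxamate against control, -0.80.

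**Figure D3:**
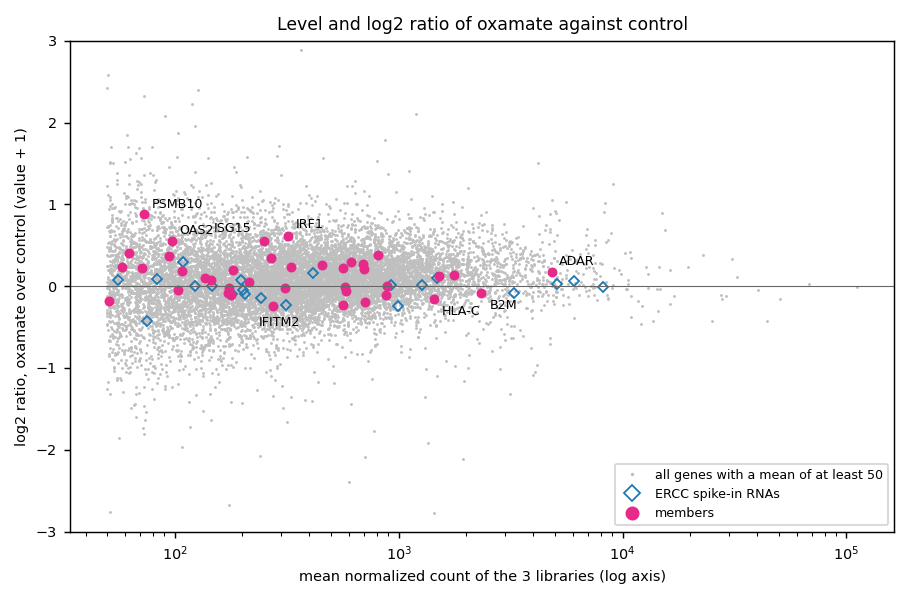
Mean normalized count of the 3 libraries (x axis, log) and log2 ratio of oxamate over control (y axis) for all genes with a mean of at least 50 (grey), ERCC RNAs of that level (blue diamonds) and the 39 members (pink). The members lie inside the cloud of all genes, from -0.24 for IFITM2 to 0.89 for PSMB10.

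Regulators of interferon signalling and nuclear body proteins held a group of 3 with like values. PARP9, PARP14 and DTX3L encode 2 ADP-ribosyltransferase family proteins and a ubiquitin ligase that pairs with PARP9. PARP9 had 260 in oxamate+lactate, 304 in oxamate and 240 in control, DTX3L had 579, 694 and 563, and PARP14 had 653, 782 and 647. For oxamate against control their log2 ratios were 0.34, 0.30 and 0.27, and for oxamate+lactate against oxamate -0.22, -0.26 and -0.26. In each of the 3 the oxamate library was highest and the other two were within 0.12 of each other. Both directions were common: 59.6% of all genes were above 0 for oxamate against control, and 29.1% for oxamate+lactate against oxamate. Of all genes, 72.3% to 78.7% had lower ratios than these 3 in the first comparison, and 15.5% to 20.7% in the second. PARP9 and DTX3L are neighbours on opposite strands that share 217 exon bases in the annotation, 2.43% of those of PARP9 and 3.70% of those of DTX3L, so a small part of their reads may be common.

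The other regulators differed less. TRIM25, the ubiquitin ligase that activates RIG-I, had 1456 in oxamate+lactate, 1610 in oxamate and 1483 in control (0.12 for oxamate against control). SP110 had 175, 199 and 174 (0.19), and SP100, a scaffold of nuclear bodies, had 209, 221 and 214 (0.05). USP18, which removes ISG15 and dampens the type I receptor, had 170, 175 and 188 (-0.10). IFI35 was listed at 46, 41 and 58. All 7 members of this role with a mean of at least 50 had lower values in oxamate+lactate than in oxamate, the median being -0.18, where 29.1% of all genes were higher. SP100 and USP18 changed sign under other scalings, and the other 5 did not.

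Of the class I chains, HLA-B, HLA-C and HLA-E were slightly lower in oxamate than in control. HLA-B had 693 in oxamate+lactate, 669 in oxamate and 765 in control (-0.19 for oxamate against control). HLA-C had 1413, 1382 and 1538 (-0.15). HLA-E, the ligand of NKG2A on natural killer cells, had 555, 521 and 611 (-0.23). In these 3 genes control was highest and oxamate lowest, and their direction for oxamate against control was the same under every scaling tried. The ratios lay within the ERCC range, the lowest being near its edge. The common light chain B2M had 2350, 2257 and 2394 (-0.08, with the sign changing once the trend on GC content and length was removed). HLA-F had 73, 76 and 65 (0.22), and the antisense HLA-F-AS1, which shares 12.3% of its exon bases, was listed at 26, 37 and 14. NLRC5, the transactivator of class I genes, had 178, 171 and 173 (-0.02). Class I genes are near-identical copies in a polymorphic region, so reads may have been lost or split between them.

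Genes of peptide supply and loading ran from -0.11 to 0.89 for oxamate against control. PSMB10, the immunoproteasome subunit that replaces PSMB7, had 71 in oxamate+lactate, 97 in oxamate and 52 in control. Its log2 ratio of 0.89 for oxamate against control was the highest of the 39 members and above those of 98.1% of all genes. With lactate it was -0.44 against oxamate and 0.44 against control. Its level is low, and 12.8% of genes with a mean of 50 to 100 were 1.5-fold higher in oxamate. In the annotation 34.8% of its exon bases are shared with another coding transcript model on the same strand, AC040162.1, which is not among the rows used. PSMB8, which replaces PSMB5, had 643, 778 and 673 (0.21), and PSMB9, which replaces PSMB6, had 291, 317 and 322 (-0.02). The constitutive subunits, from the list of further genes, had ratios of 0.38 for PSMB5 (309 in oxamate+lactate, 359 in oxamate and 275 in control), 0.10 for PSMB6 (764, 833 and 775) and -0.10 for PSMB7 (1261, 1306 and 1396).

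The 2 chains of the peptide transporter had ratios of opposite sign for oxamate against control, both within the ERCC range of -0.24 to 0.29. TAP1 had 539 in oxamate+lactate, 623 in oxamate and 532 in control (0.23 for oxamate against control), and TAP2 had 831, 866 and 936 (-0.11). In the annotation TAP2 shares 32.3% of its exon bases with a coding transcript model on the same strand, AL669918.1, which is not among the rows used. TAPBP, or tapasin, which bridges the transporter and the class I molecule, had 759, 949 and 726 (0.39, and -0.32 for oxamate+lactate against oxamate). ERAP1, the peptidase that trims peptides to length, had 858, 904 and 900 (0.01). All 7 genes of this role were lower in oxamate+lactate than in oxamate in the values as deposited, with a median of -0.21 beside -0.09 for all genes, of which 29.1% were above 0. TAP2 and ERAP1 changed sign under other scalings, and the other 5 did not. Of 14 further class I genes with a mean of at least 50, CALR alone was 1.5-fold different, 7.14% beside 7.48% of all genes higher in oxamate. This chaperone of the endoplasmic reticulum had 9171 in oxamate+lactate, 10728 in oxamate and 6860 in control (0.65).

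**Figure D4:**
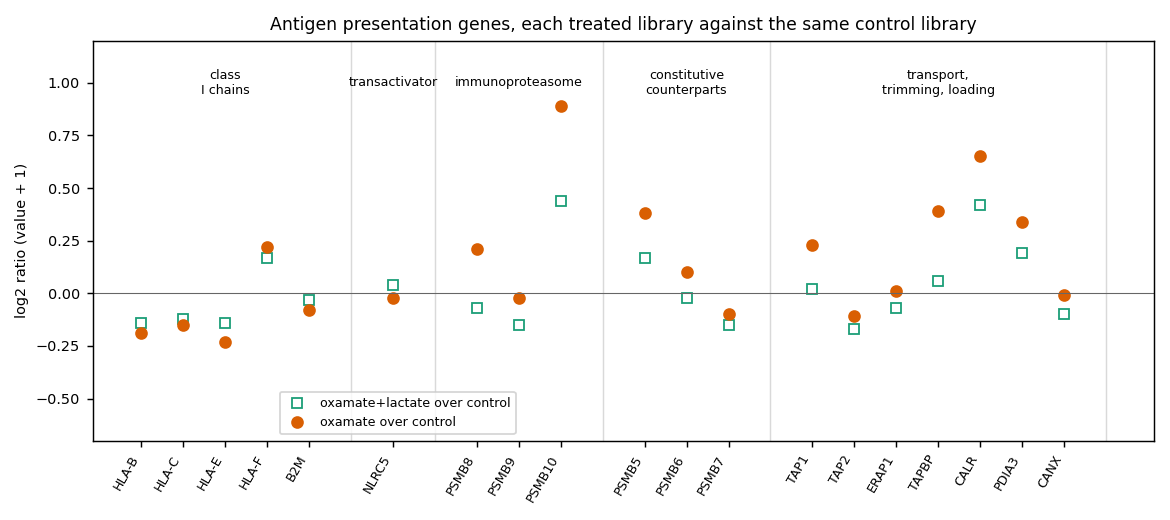
Log2 ratios (y axis) of oxamate+lactate (green squares) and oxamate (orange circles) over the same control library for antigen presentation genes in order of their role (x axis). HLA-B, HLA-C and HLA-E lie below 0 with both treatments, and PSMB10, TAPBP and CALR lie highest in oxamate, at 0.89, 0.39 and 0.65.

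Levels can be set side by side only per length, here as normalized counts per kilobase of the longest annotated transcript. On that scale B2M was highest in all 3 libraries, with 978 in oxamate+lactate, 939 in oxamate and 996 in control, followed in control by HLA-C at 818, ADAR at 660 and HLA-B at 495. In oxamate ADAR, at 742, stood above HLA-C, at 735, a difference too small to order them. The lowest of the 39 were ISG20, with 13.8 in oxamate+lactate, 9.23 in oxamate and 7.81 in control, and OAS2, with 23.2, 23.0 and 15.6. These ranks depend on the length used, 5634 bases for ISG20, and a shorter transcript would give a higher level. Which transcripts the cells held was not tested. ISG15, at 332, 372 and 253, was the effector with the highest level after ADAR in each treated library, and in control it came after IFITM2, at 355.

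The promoters of the members often hold the ISRE letters. RefSeq promoter windows, from 250 bases before to 50 after the start site on GRCh38.p14, were matched for 38 of the 48 genes. The letters of the ISRE core, read as GAAA, any 2 bases and GAAA on either strand, are in 22 of these 38 (57.9%) and in 996 of all 27305 windows (3.65%). The letters of the GAS, TTCNNNGAA, which reads the same on both strands, are in 7 of 38 (18.4%) and in 7.88% of all. The 5 windows printed are those of ISG15, DTX3L, B2M, PSMB10 and IRF1. ISG15 and PSMB10 are the effector and the class I gene with the highest ratio for oxamate against control, B2M has the highest level per kilobase, DTX3L belongs to the group of 3, and IRF1 carries the GAS. Capitals mark ISRE matches in the first 4 and the GAS match in IRF1. They are at chr1:1013247-1013546 on the plus strand, chr3:122564088-122564387 on the plus strand, chr15:44711267-44711566 on the plus strand, chr16:67936801-67937100 on the minus strand and chr5:132490724-132491023 on the minus strand.
ISG15: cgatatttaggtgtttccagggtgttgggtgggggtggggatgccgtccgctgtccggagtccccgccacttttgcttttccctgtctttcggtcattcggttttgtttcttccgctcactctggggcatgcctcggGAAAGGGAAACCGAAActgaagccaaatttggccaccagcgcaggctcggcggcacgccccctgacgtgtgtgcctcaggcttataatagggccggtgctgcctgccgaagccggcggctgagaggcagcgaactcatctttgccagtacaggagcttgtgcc
DTX3L: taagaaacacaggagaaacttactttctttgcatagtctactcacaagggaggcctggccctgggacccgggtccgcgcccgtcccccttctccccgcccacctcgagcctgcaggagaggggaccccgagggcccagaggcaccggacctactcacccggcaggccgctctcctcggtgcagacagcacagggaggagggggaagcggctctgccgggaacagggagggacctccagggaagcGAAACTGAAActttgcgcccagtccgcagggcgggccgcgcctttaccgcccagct
B2M: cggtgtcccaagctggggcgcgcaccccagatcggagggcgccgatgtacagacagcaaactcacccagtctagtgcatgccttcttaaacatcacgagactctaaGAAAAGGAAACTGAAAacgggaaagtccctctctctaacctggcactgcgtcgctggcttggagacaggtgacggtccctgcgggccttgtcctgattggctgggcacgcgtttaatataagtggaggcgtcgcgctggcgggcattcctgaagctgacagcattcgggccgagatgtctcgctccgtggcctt
PSMB10: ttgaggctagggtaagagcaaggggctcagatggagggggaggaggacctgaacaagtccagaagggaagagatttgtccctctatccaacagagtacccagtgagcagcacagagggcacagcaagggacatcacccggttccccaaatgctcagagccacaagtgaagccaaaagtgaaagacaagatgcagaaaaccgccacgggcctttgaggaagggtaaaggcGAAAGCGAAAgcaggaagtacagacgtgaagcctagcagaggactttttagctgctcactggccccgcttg
IRF1: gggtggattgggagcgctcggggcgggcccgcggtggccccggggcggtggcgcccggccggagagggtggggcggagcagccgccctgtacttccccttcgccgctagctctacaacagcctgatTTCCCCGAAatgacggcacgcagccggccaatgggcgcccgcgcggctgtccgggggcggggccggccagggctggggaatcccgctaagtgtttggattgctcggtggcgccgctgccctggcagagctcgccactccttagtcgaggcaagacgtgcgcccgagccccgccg
ISG15 and B2M each hold 2 overlapping ISRE matches, starting at -113 and -107 in ISG15 and at -144 and -138 in B2M relative to the start site. DTX3L and PSMB10 hold 1 each, at -6 and -21, and the GAS letters of IRF1 start at -124. These are letter matches and not measured binding sites.

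Genes with the ISRE letters had log2 ratios much like those of genes without. For oxamate against control the 18 members with the letters and a mean of at least 50 were at a median of 0.23, and the 13 matched members without them 0.14. Outside the members, 206 genes with the letters had a median of 0.09 and 8191 genes without them 0.08. At least 1.5-fold higher were 7.77% of the 206 and 6.90% of the 8191. For oxamate+lactate against oxamate the medians were -0.19 and -0.16 for the members with and without the letters, and -0.08 and -0.09 for the other genes. For the GAS letters, medians for oxamate against control were 0.08 for 516 other genes with them and 0.08 for 7881 without. Only 3 members with a mean of at least 50 held them, IRF1 among these, too few to compare. Their median was 0.27, beside 0.19 for 28 members without, and -0.26 beside -0.15 for oxamate+lactate against oxamate. B2M and ISG15, with like pairs of overlapping matches, had ratios of -0.08 and 0.56.

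Other interferon-stimulated genes, from a list that holds none of the members, were counted in the same way. Of 43 listed, 34 had a row and 30 a mean of at least 50, and 7 of these were 1.5-fold higher in oxamate than in control and 0 lower, or 23.3% and 0%, beside the 7.48% and 3.98% of all genes. The list was written with earlier results of these data known and its share was not tested. EPSTI1 had 191 in oxamate+lactate, 248 in oxamate and 124 in control (0.99), GBP1, a guanylate-binding protein, had 205, 346 and 219 (0.66), and CMPK2, a mitochondrial nucleotide kinase, had 177, 289 and 167 (0.79). PML, the scaffold of the nuclear bodies that hold SP100, had 1072, 1374 and 886 (0.63). HELZ2, UBA7 and GBP3, at means under 100, had 92, 100 and 53, 63, 65 and 33, and 69, 61 and 39 in oxamate+lactate, oxamate and control. GBP1 and CMPK2 were at least 1.5-fold lower in oxamate+lactate than in oxamate (-0.75 and -0.70), 6.67% of the 30 beside 0.903% of all genes. GBP3, UBA7, EPSTI1 and HELZ2 were at least 1.5-fold higher in oxamate+lactate than in control (0.81, 0.91, 0.62 and 0.78), 13.3% beside 2.99%. The median of the 30 for oxamate against control was 0.14, that of the members. DDX60, an RNA helicase, had the lowest ratio, with 151, 154 and 224 (-0.54).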

How the data were processed

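RNA came by TRIzol from equal cell numbers after 48 hours in 3 media, ERCC spike-ins were added, and poly(A) libraries were made with a kit that keeps no strand information, per the labels' protocols. The submitters' processing notes list, without roles, FastQC 0.11.9, HTSeq 0.11.2, STAR 2.7.1a and the genome build hg19. Not given in the sources used here are the normalization and the annotation. A table of 17365 rows called normalized counts was deposited. Its values are whole, and they were taken as a score that the authors made from read counts by normalization and rounding before they were deposited. Whole values could also be raw counts. In that case the ratios are not corrected for library size. No count model was fitted.

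Samples were grouped by their treatment label. Ratios are log2((value + 1)/(value + 1)), with fold thresholds of 1.5 and 2 over genes with a mean of at least 50, and 36 ERCC rows were left out of gene counts. No test, p-value or standard error is possible with 1 library per condition. The members and lists were chosen with earlier results of these data known. Named genes were the members under the mean of 50, those 1.5-fold different, the extremes of each role, and listed pathway genes that were 1.5-fold different; other values were added after they were seen, and some listed pathway genes are not reported here.

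Transcript length, GC content and exon overlap were read from GENCODE 29, whose build differs from hg19, and covered 91.3% of genes with a mean of at least 50 and all 39 members. Promoters came from RefSeq (GRCh38.p14). The alternatives were a pseudocount of 10, no floor, a floor of 200, equal gene sums, equal ERCC sums, centring on the median of all genes, and removal of a quadratic trend on GC content and log2 length. The computation was tested on simulated libraries. Python 3.11.15, pandas 2.3.3 and numpy 2.4.6 were used.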

Additional observations from a re-analysis of the deposited data

How the results depend on the processing

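The member medians moved by no more than the ERCC standard deviation under each of the 7 alternatives in all 3 comparisons. That limit is wide: it was 0.13, 0.11 and 0.19, where the medians were 0.14, -0.12 and -0.03. With equal gene sums the medians were 0.04 for oxamate against control, -0.01 for oxamate+lactate against oxamate and -0.02 for oxamate+lactate against control. Counts of members at least 1.5-fold different are small, so a single gene moves them by more than 1.5 times. For oxamate against control, the 2 higher members became 1 with a floor of 200, where PSMB10 was left out, and 1 with equal gene sums, centring on the median of all genes or the GC and length trend removed, where IRF1 was just under the threshold. With no floor 1 was lower, BST2. For oxamate+lactate against oxamate, ISG20 became 1 higher member with equal gene sums, equal ERCC sums, centring and the trend removed. The lower count was 2 with no floor, by TRIM22, and 0 with a floor of 200, where IFITM3 was left out. For oxamate+lactate against control the higher count was 3 with no floor, 3 with equal ERCC sums, where OAS2 and IFIH1 joined ISG20, 2 with the trend removed and 0 with a floor of 200. The lower count was 2 with no floor. Equal gene sums moved the median of all genes by -0.10 for oxamate against control and by 0.11 for oxamate+lactate against oxamate. Over 4 such rescalings, the sign for oxamate against control was kept by 32 of 39 members, 21 higher and 11 lower. It changed for IFI6, DDX58, EIF2AK2, SP100, B2M, PSMB9 and ERAP1. Of 774 single-gene values under an alternative, 6 moved by more than the ERCC standard deviation and no 1.5-fold difference changed sign. Most of these values could hardly count as moved. With no floor or a floor of 200 each gene keeps its ratio. Equal gene sums, equal ERCC sums and centring shift all genes by nearly the same amount, at most 0.11. Only the pseudocount and the trend on GC content and length could move single genes apart. No paired analysis was possible because each condition has 1 library. For oxamate+lactate against oxamate the sign was kept by 31 of 39, and for oxamate+lactate against control by 29. With the depth unknown, the only measured spread is that of the ERCC RNAs, of which 3 have a mean of 40 to 100, with SDs of 0.29, 0.25 and 0.36 in the 3 comparisons.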

Other observations

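Class II presentation and feedback genes of the same pathway lay mostly under the mean of 50. They were named after their values were seen, and no explanation was tested. CIITA, the class II transactivator, had 79 in oxamate+lactate, 76 in oxamate and 54 in control, and was the only one of 10 listed class II genes with a mean of at least 50. HLA-DPA1 was listed at 6, 18 and 1, and IRF5, a factor of Toll-like receptor signalling, at 9, 25 and 2. SOCS3, a feedback inhibitor of cytokine receptors, was listed at 9 in oxamate+lactate, 19 in oxamate and 40 in control, and SOCS1, the inhibitor of JAK kinases, at 3, 6 and 19. Both suppressors were listed lower in the treated libraries than in control, at values too low to compare.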
